A study of Mus musculus with 12 samples.

Results

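The tubulin isoform genes are a set of 10 genes chosen by name: the alpha tubulins Tuba1a, Tuba1b, Tuba1c, Tuba4a and Tuba8, and the beta tubulins Tubb2a, Tubb2b, Tubb3, Tubb5 and Tubb6. Each gene was read from the brightest probe set that carries its symbol alone. Of the 10 genes, 8 had such a probe set, among 18820 genes measured in this way. Tuba1c and Tubb3 had only probe sets shared with other symbols and have no value of their own here. Expression was measured on 12 arrays, 3 for each of hind limb skeletal muscle of Tk2-/- mice, hind limb skeletal muscle of Tk2+/+ mice, heart of Tk2-/- mice and heart of Tk2+/+ mice, all C57BL/6 and 11 days old. Tk2 encodes the mitochondrial thymidine kinase 2, which salvages thymidine for the replication of mitochondrial DNA. The Tk2-/- mice are knockouts and carry no other allele or treatment in the labels, and the Tk2+/+ mice are wild type. The labels call the 3 samples of a group biological replicates, and the methods give them as different mice. The methods describe both tissues as taken from 3 mice of each genotype, but the labels do not link arrays by animal. The main tests treat all 12 arrays as separate samples.

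Alpha and beta tubulin form the dimers that assemble into microtubules, the hollow filaments that carry transport, place nuclei and build the mitotic spindle. Mammals encode several isotypes of each, which differ mostly in their acidic C-terminal tails, where enzymes add or remove tyrosine, glutamate and glycine. In muscle fibres and cardiomyocytes microtubules form a lattice around nuclei and between myofibrils that takes part in the stiffness of the cell and the placing of mitochondria. New tubulin is folded by the chaperonin CCT with prefoldin and tubulin cofactors, and cells are known to degrade tubulin messages when free dimers build up.

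Each array gives 1 linear intensity per probe set, called signal here. Mean signal over all probe sets was 224.9 to 245.9 on Tk2-/- skeletal muscle arrays and 201.8 to 252.4 on Tk2+/+ skeletal muscle arrays. It was 146.7 to 168.4 on Tk2-/- heart arrays, below the 227.4 to 242.6 on Tk2+/+ heart arrays, and among 4051 bright genes 94.7% had a log2 fold change below 0 in the heart. Heart values are therefore also given after quantile normalization within the tissue, which gives the arrays of a tissue 1 distribution and puts the median gene at a log2 fold change of 0.002. The targeted gene Tk2 had 64.7, 44.1 and 48.7 in Tk2-/- skeletal muscle, against 62.9, 68.5 and 63.1 in Tk2+/+ skeletal muscle, so that replicate 1 of Tk2-/- lay within the Tk2+/+ range (log2 fold change -0.25, adjusted p = 0.208). In the heart Tk2 had 30.1, 46.2 and 31.7 in Tk2-/- mice, against 70.2, 73.6 and 81.8 in Tk2+/+ mice (-0.82, adjusted p = 7.62e-05). After quantile normalization the log2 fold change of Tk2 in the heart was -0.46 (adjusted p = 0.0115). Of 9 markers of skeletal muscle fibres, 8 were higher in Tk2+/+ skeletal muscle than in Tk2+/+ heart, and 7 of 7 measured cardiomyocyte markers were lower, as the tissue labels say. All p-values are 2-sided, from limma fitted to log2(signal + 16) across all 18820 genes, with Benjamini-Hochberg adjustment and a threshold of 0.05.

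The sequences shown are promoters of 3 members whose signals followed each other most closely over the arrays, Tuba1a, Tubb5 and Tubb2a, and of Tuba8, whose signal followed each of these 3 least among the members. They come from RefSeq (GRCm38.p6) and run from 250 bases before to 50 bases after the annotated gene start, 5′ to 3′ on the strand of the gene. Capitals mark every match, on either strand, to 4 motifs, which are the box CCAAT, the GC box core GGGCGG, the TATA box as TATAAA and the E-box CANNTG.
Tuba1a (chr15:98953452-98953751, minus strand): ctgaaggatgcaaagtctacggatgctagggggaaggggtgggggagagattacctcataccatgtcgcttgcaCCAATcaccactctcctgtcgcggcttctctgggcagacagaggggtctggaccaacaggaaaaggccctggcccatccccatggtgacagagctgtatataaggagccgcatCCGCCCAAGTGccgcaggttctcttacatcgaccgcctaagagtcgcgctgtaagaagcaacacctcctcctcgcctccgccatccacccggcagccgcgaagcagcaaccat
Tubb5 (chr17:35838252-35838551, minus strand): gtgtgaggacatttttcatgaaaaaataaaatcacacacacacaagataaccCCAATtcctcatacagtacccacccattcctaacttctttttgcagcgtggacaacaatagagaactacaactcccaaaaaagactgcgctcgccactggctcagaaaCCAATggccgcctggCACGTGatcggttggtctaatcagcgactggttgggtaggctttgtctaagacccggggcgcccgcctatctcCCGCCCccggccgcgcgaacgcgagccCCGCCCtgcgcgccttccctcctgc
Tubb2a (chr13:34077959-34078258, minus strand): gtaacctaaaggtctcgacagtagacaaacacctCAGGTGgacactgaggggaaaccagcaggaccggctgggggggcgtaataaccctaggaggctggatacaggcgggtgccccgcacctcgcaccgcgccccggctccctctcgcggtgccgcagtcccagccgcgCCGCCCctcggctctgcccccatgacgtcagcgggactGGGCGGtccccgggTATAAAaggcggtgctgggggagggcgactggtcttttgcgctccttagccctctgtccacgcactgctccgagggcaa
Tuba8 (chr6:121210484-121210783, plus strand): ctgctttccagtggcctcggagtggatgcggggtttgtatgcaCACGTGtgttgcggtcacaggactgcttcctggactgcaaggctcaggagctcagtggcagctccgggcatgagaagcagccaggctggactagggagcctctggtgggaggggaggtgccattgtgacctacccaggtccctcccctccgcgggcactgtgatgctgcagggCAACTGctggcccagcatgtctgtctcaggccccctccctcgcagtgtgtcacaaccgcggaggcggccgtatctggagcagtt
In Tuba1a the second run of capitals joins a GC box core on the opposite strand and an E-box that overlap.

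Promoters of 8 listed genes were searched, Tuba1a, Tuba1b, Tuba1c, Tuba4a, Tuba8, Tubb2a, Tubb3 and Tubb5. CCAAT, the letters that the factor NF-Y reads, was found in 4 of the 8, Tuba1a, Tuba1c, Tubb3 and Tubb5, and in 37.4% of all 32851 promoters of the table. GGGCGG, the core of a GC box, was found in 6 of the 8 and in 35.7% of all promoters. TATAAA was found in 1 of the 8, Tubb2a, where it began 29 bases before the gene start, and in 13.6% of all promoters. CANNTG, the E-box that myogenic factors among others read, was found in 7 of the 8, all but Tubb3, and in 72.3% of all promoters. Tuba8 held CANNTG 2 times and none of the other 3 motifs. A match describes letters in this window and was not tested as a binding site.

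In skeletal muscle, 7 of the 8 measured tubulin genes fell in Tk2-/- mice and 0 rose. Over all genes tested, 10.9% were lower and 11.6% were higher in the same comparison. The median log2 fold change of the 8 genes was -0.84, and that of all genes was -0.02. The largest fall was that of Tuba1a, and Tuba4a did not pass the test.

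Tuba1a is the alpha isotype best known from growing axons and young muscle cells. Its signal was 590.1, 435.2 and 423.0 in Tk2-/- skeletal muscle, against 1242, 1160 and 936 in Tk2+/+ skeletal muscle. The highest Tk2-/- array lay below the lowest Tk2+/+ array by a wide margin. The log2 fold change was -1.18 ± 0.15 (SE, adjusted p = 5.55e-05), and 214 of the 18820 genes had a lower one. Tuba1b, the alpha isotype that most cells and dividing cells in particular make, had 812, 843 and 698 in Tk2-/- skeletal muscle, against 2009, 1755 and 1289 in Tk2+/+ skeletal muscle. All 3 Tk2-/- arrays were below all Tk2+/+ arrays (-1.07 ± 0.18, adjusted p = 4.70e-04). A second probe set that carries the symbol Tuba1b alone gave -1.18, and the other 7 members had 1 such probe set each. Probe sets shared with other symbols, which Tuba1a, Tuba1b, Tuba4a, Tubb2a and Tubb2b also had, were not used.

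Tubb5 is the beta isotype found in nearly all cells. It had 649, 668 and 528 in Tk2-/- skeletal muscle, against 1433, 1290 and 956 in Tk2+/+ skeletal muscle. The Tk2-/- arrays all lay below the Tk2+/+ arrays, and the log2 fold change was -0.97 ± 0.14 (SE, adjusted p = 1.86e-04). Tubb2b, which like Tubb2a is best known from neurons, had 69.4, 54.2 and 70.8 in Tk2-/- skeletal muscle, against 185, 131 and 121 in Tk2+/+ skeletal muscle. These groups too lay apart (-0.99 ± 0.17, adjusted p = 7.17e-04). Tubb2b was the dimmest member, with a mean of 37.7 in Tk2-/- heart, so that the offset of 16 understates its fold change more than that of the others.

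Tubb2a had 161, 133 and 118 in Tk2-/- skeletal muscle, against 288, 225 and 186 in Tk2+/+ skeletal muscle. The lowest Tk2+/+ array was above the highest Tk2-/- array (-0.68 ± 0.14, adjusted p = 0.00232). Tubb6, a beta isotype with levels reported to be raised in dystrophic mouse muscle, had 313, 215 and 249 in Tk2-/- skeletal muscle, against 467, 497 and 340 in Tk2+/+ skeletal muscle. The highest Tk2-/- array, at 313, was close to the lowest Tk2+/+ array, at 340 (-0.71 ± 0.16, adjusted p = 0.00513).

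Tuba8, a diverged alpha isotype described in heart, skeletal muscle and testis, had 1742, 2051 and 1833 in Tk2-/- skeletal muscle, against 2591, 3386 and 2313 in Tk2+/+ skeletal muscle. The arrays did not overlap, but the fall was close to the threshold (-0.54 ± 0.18, adjusted p = 0.0467). It lost the call when any 1 of the 3 Tk2-/- skeletal muscle arrays or of replicates 1 and 2 of Tk2+/+ skeletal muscle was left out, with adjusted p between 0.0669 and 0.196, and also without replicate 1 of either heart group (0.0531 and 0.0610). Tuba4a is an alpha isotype whose gene does not encode the C-terminal tyrosine. It had 2254, 3384 and 2238 in Tk2-/- skeletal muscle, against 2855, 3683 and 2679 in Tk2+/+ skeletal muscle. Replicate 2 of Tk2-/- lay within the Tk2+/+ range. The log2 fold change of Tuba4a was -0.24, with a 95% interval of -0.75 to 0.27 (adjusted p = 0.574).

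The arrays of the genotypes were fully apart and lower in Tk2-/- for 7 of 8 tubulin genes in skeletal muscle, where 18.8% of all genes were. After quantile normalization within the tissue the calls were again 7 lower and 0 higher, with the same 7 genes, beside 14.8% and 13.9% of all genes. Tuba4a then had -0.38 (adjusted p = 0.210).

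**Figure D1:**
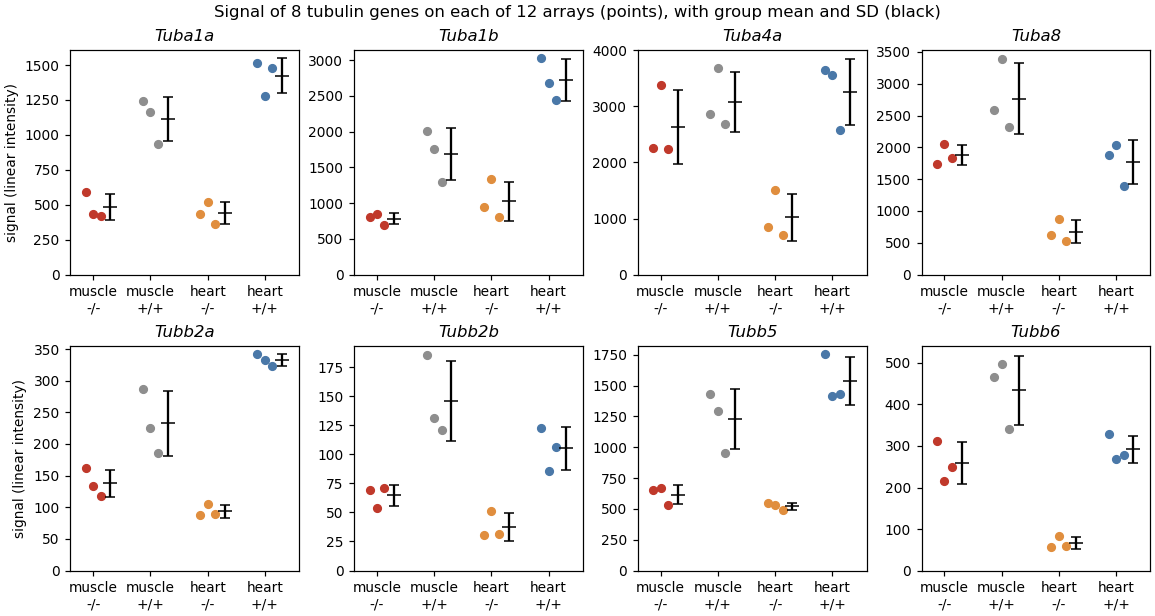
Linear signal of the 8 measured tubulin genes (1 panel each, vertical axis from 0) on each array, for Tk2-/- and Tk2+/+ skeletal muscle and Tk2-/- and Tk2+/+ heart, with points for arrays and black marks for the mean and SD (n = 3). In skeletal muscle the genotypes overlap for Tuba4a and for none of the other 7 genes, and in the heart they overlap for none of the 8.

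In the heart all 8 measured tubulin genes fell in Tk2-/- mice, with 0 higher. The background was high here, since 49.0% of all genes were lower and 1.99% higher in the deposited values. After quantile normalization within the heart the same 8 genes were lower and 0 higher, where 17.8% of all genes were lower and 13.8% higher. The median log2 fold change of the 8 genes was -1.60 in the deposited values, where that of all genes was -0.28, and -0.92 after quantile normalization. Arrays of the genotypes were apart and lower for 8 of 8 tubulin genes, and for 53.3% of all genes.

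Tubb6 had the largest fall in the heart. Its signal was 56.2, 82.5 and 59.2 in Tk2-/- heart, against 330, 269 and 279 in Tk2+/+ heart. The highest Tk2-/- heart was far below the lowest Tk2+/+ heart, and 104 of 18820 genes had a lower log2 fold change than its -1.92 ± 0.16 (SE, adjusted p = 8.40e-07). After quantile normalization the value for Tubb6 was -1.34 (adjusted p = 2.61e-05). The gene Tuba4a, which did not pass in skeletal muscle, had 840, 1503 and 713 in Tk2-/- heart, against 3640, 3550 and 2586 in Tk2+/+ heart. Replicate 2 of Tk2-/- was the highest of its group and still below every Tk2+/+ array (-1.72 ± 0.24, adjusted p = 2.49e-05, and -1.13 with adjusted p = 0.00128 after quantile normalization).

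Tuba1a had 436, 520 and 361 in Tk2-/- heart, against 1513, 1282 and 1478 in Tk2+/+ heart. Its groups were far apart, with a log2 fold change of -1.67 ± 0.15 (SE, adjusted p = 1.36e-06). Tubb2a had 87.2, 106 and 88.6 in Tk2-/- heart, against 342, 332 and 324 in Tk2+/+ heart. The spread within a genotype was the smallest of the 8 genes in Tk2+/+ heart relative to the mean (333 ± 9.19, SD, n = 3), and the log2 fold change was -1.67 ± 0.14 (SE, adjusted p = 7.79e-07). Tubb5 had 546, 528 and 489 in Tk2-/- heart, against 1758, 1414 and 1431 in Tk2+/+ heart, again with no overlap (-1.52 ± 0.14, adjusted p = 1.61e-06). After quantile normalization these 3 genes had log2 fold changes of -0.99 for Tuba1a, -1.04 for Tubb2a and -0.86 for Tubb5, with adjusted p of at most 1.92e-04.

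Tuba1b had 945, 1333 and 807 in Tk2-/- heart, against 3027, 2680 and 2443 in Tk2+/+ heart (-1.41 ± 0.18, adjusted p = 1.20e-05). Tuba8 had 617, 873 and 532 in Tk2-/- heart, against 1877, 2041 and 1387 in Tk2+/+ heart (-1.38 ± 0.18, adjusted p = 1.83e-05). For both genes replicate 2 was the highest of the Tk2-/- hearts, and it was also the brightest Tk2-/- heart array as a whole, with a mean signal of 168.4. Tubb2b had 30.2, 51.6 and 31.4 in Tk2-/- heart, against 123, 85.7 and 106 in Tk2+/+ heart. Its fall of -1.18 ± 0.17 (adjusted p = 3.95e-05) was the smallest of the 8 genes as deposited. Once arrays were quantile normalized, Tuba8 had the smallest (-0.71, adjusted p = 0.00435), close to Tubb2b (-0.77) and Tuba1b (-0.80).

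**Figure D2:**
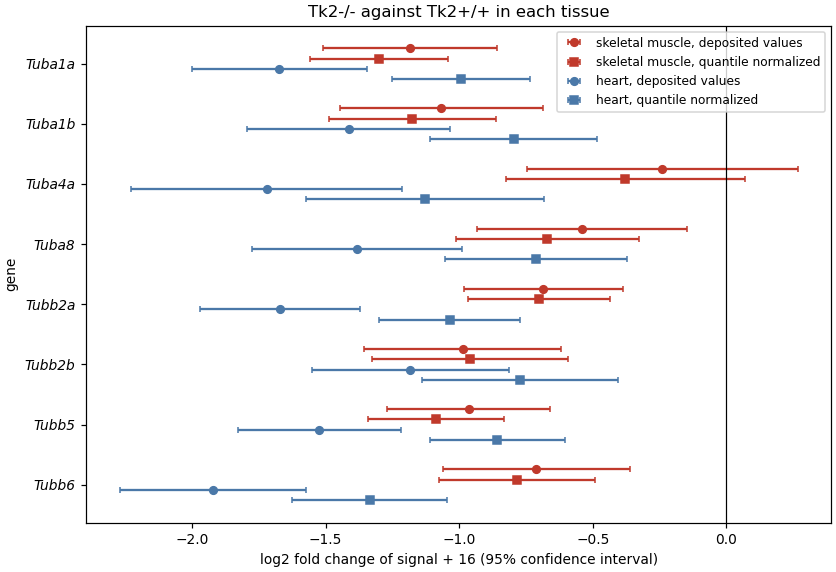
Log2 fold change of signal + 16 in Tk2-/- against Tk2+/+ mice (horizontal axis, points with 95% confidence intervals) of 8 tubulin genes in skeletal muscle (red) and heart (blue), from deposited values (circles) and after quantile normalization within the tissue (squares). All points are below 0, only the skeletal muscle intervals of Tuba4a include 0, and quantile normalization moves the heart values toward 0.

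Most markers of dividing cells and of fibroblasts fell in the same comparisons. In skeletal muscle 8 of 9 measured markers of cycling cells were lower and 0 higher, with a summed signal of 582 to 943 in Tk2-/- mice and 1150 to 1996 in Tk2+/+ mice. The marker that was not lower there was Pcna, with 542 ± 76.8 in Tk2-/- and 501 ± 77.6 in Tk2+/+ skeletal muscle (SD, n = 3 each). Pcna made up most of the Tk2-/- sums. In the heart all 9 were lower, with sums of 396 to 478 in Tk2-/- mice and 1412 to 2554 in Tk2+/+ mice. These summed ranges did not overlap between genotypes, and no marker of the list was at 0, with Top2a lowest at 4.35 in Tk2-/- heart. Of 6 fibroblast markers 4 were lower and 1 higher in skeletal muscle, with sums of 6869 to 8410 in Tk2-/- mice and 11783 to 13521 in Tk2+/+ mice. Col1a1, Col1a2, Col3a1 and Lum had lower means in Tk2-/- skeletal muscle. Pdgfra averaged 511 ± 38.1 there and 386 ± 35.9 in Tk2+/+ skeletal muscle, and Dcn 3822 ± 336 and 3263 ± 461 (SD, n = 3 each). In the heart 6 of 6 were lower, with sums of 4833 to 5258 in Tk2-/- mice and 8189 to 10019 in Tk2+/+ mice, and after quantile normalization 4 were lower and 1 higher. Of 9 markers of myogenic progenitors and immature fibres 4 were lower and 0 higher in skeletal muscle, or 4 and 1 after quantile normalization. Their sums were 5152 to 6782 in Tk2-/- mice and 4710 to 7212 in Tk2+/+ mice, and Myh3 and Myh8 made up most of them. In Tk2-/- and Tk2+/+ skeletal muscle Mymk averaged 140 and 725, Myog 65.7 and 241, Myod1 154 and 335, and Pax7 58.3 and 83.6. Myh3 (4149 and 2901), Msc (48.0 and 37.3) and Myf5 (70.4 and 60.2) had higher means in Tk2-/- mice. Macrophage markers were lower in the heart for 5 of 5 genes in both settings, and endothelial markers for 6 of 6, or 4 after quantile normalization. Erythroid markers were lower in the heart for 3 of 4 genes, or 2 after quantile normalization, with sums of 451 to 758 in Tk2-/- mice and 1172 to 1960 in Tk2+/+ mice. In skeletal muscle 2 of 5 macrophage markers were higher and 0 lower, with sums of 1131 to 1474 in Tk2-/- mice and 898 to 1094 in Tk2+/+ mice. Of 3 measured adipocyte markers 2 were higher there and 1 lower, with sums of 363 to 756 in Tk2-/- mice and 215 to 405 in Tk2+/+ mice. The part of these cells in the tubulin values was not tested. Of 9 markers of skeletal muscle fibres 0 changed in skeletal muscle, where their sums were 46981 to 51179 in Tk2-/- mice and 43001 to 58076 in Tk2+/+ mice. Of 7 cardiomyocyte markers 3 were lower in the heart, and 0 changed after quantile normalization. Of 7 nerve markers 1 was lower in each tissue, or 0 in the heart after quantile normalization, with sums of at most 199 on any array. In whole tissue, fewer cells of a type and less RNA per cell cannot be told apart.

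The falls of the tubulin genes were set against each other between tissues by the difference of the log2 fold changes, skeletal muscle minus heart. In the deposited values this difference was above 0 and passed the test for 5 of the 8 genes, and was below 0 for 0 genes, where 41.3% of all genes passed above 0 and 1.39% below. The 5 genes were Tuba4a (1.48 ± 0.34, SE, adjusted p = 0.00234), Tubb6 (1.21 ± 0.23, adjusted p = 7.77e-04), Tubb2a (0.99 ± 0.20, adjusted p = 0.00107), Tuba8 (0.84 ± 0.26, adjusted p = 0.0156) and Tubb5 (0.56 ± 0.20, adjusted p = 0.0364). With the arrays of each tissue brought to 1 distribution 0 genes passed above 0 and 0 below, where 5.97% and 4.54% of all genes did. The differences of Tuba1a, Tuba1b, Tubb2b and Tubb5 then lay below 0, between -0.38 and -0.19. Those of Tuba4a (0.75, 95% interval 0.12 to 1.38, adjusted p = 0.125) and Tubb6 (0.55, interval 0.14 to 0.96, adjusted p = 0.0861) were the highest of the 8 and missed the threshold. Before adjustment, 2 of the 8 genes, Tuba4a and Tubb6, had p of 0.0237 and 0.0126.

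**Figure D3:**
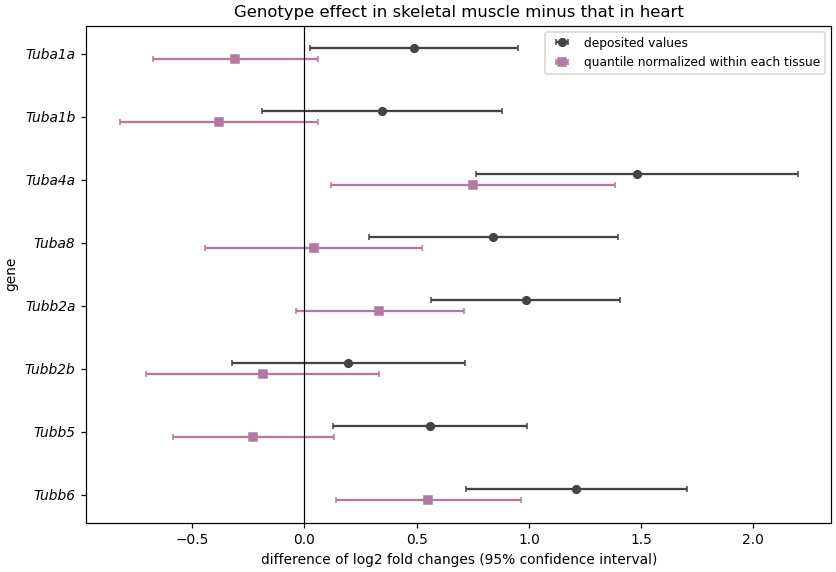
Difference of the log2 fold changes, skeletal muscle minus heart (horizontal axis, points with 95% confidence intervals), of 8 tubulin genes from deposited values (circles) and after quantile normalization within each tissue (squares). All 8 circles lie above 0, while 4 of the 8 squares lie below 0.

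The genes differed in how their levels ran over the tissues, each compared with itself. In Tk2+/+ mice 2 of the 8 genes were higher in skeletal muscle than in heart and 2 were lower, where 30.6% of all genes were higher and 18.4% lower. Tuba8 was higher in Tk2+/+ skeletal muscle, with a mean of 2764 ± 557 there and 1768 ± 340 in Tk2+/+ heart (SD, n = 3 each, log2 fold change 0.64, adjusted p = 0.0102). Tubb6 averaged 435 ± 83.3 in Tk2+/+ skeletal muscle and 293 ± 32.6 in Tk2+/+ heart (0.53, adjusted p = 0.0145). Both calls were lost without replicate 2 of Tk2+/+ skeletal muscle, which left 2 genes called in place of 4.

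Tuba1b was lower, with 1684 ± 365 in Tk2+/+ skeletal muscle and 2716 ± 294 in Tk2+/+ heart (SD, n = 3 each, -0.70, adjusted p = 0.00492). Tubb2a averaged 233 ± 51.4 in Tk2+/+ skeletal muscle and 333 ± 9.19 in Tk2+/+ heart (-0.51, adjusted p = 0.00823). Tuba1a (-0.36, adjusted p = 0.0651), Tubb5 (-0.33, adjusted p = 0.0667) and Tubb2b (0.41, adjusted p = 0.0618) missed the threshold. Tuba4a had 3073 ± 536 in Tk2+/+ skeletal muscle and 3259 ± 585 in Tk2+/+ heart, with an interval of the log2 fold change of -0.59 to 0.42.

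In Tk2-/- mice 5 of the 8 genes were higher in skeletal muscle than in heart and 0 were lower, where 59.5% of all genes were higher and 4.55% lower. This comparison uses the dim Tk2-/- heart arrays, and the median log2 fold change of all genes was 0.36. Tubb6 averaged 259 ± 49.6 in Tk2-/- skeletal muscle and 66.0 ± 14.4 in Tk2-/- heart (1.74, adjusted p = 3.67e-07). Tuba8 had 1876 ± 159 in Tk2-/- skeletal muscle and 674 ± 178 in Tk2-/- heart (1.48, adjusted p = 6.47e-06). Tuba4a averaged 2625 ± 657 in Tk2-/- skeletal muscle and 1019 ± 425 in Tk2-/- heart (1.40, adjusted p = 1.24e-04). Tubb2b (0.61) and Tubb2a (0.48) were higher too, with adjusted p of 0.00695 and 0.00800. Tuba1a (0.13), Tubb5 (0.23) and Tuba1b (-0.36) did not pass, with adjusted p of 0.456, 0.174 and 0.0899. The 2 tissue comparisons use the same arrays as the genotype comparisons, so they are another view of the same values and not further evidence.

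**Figure D4:**
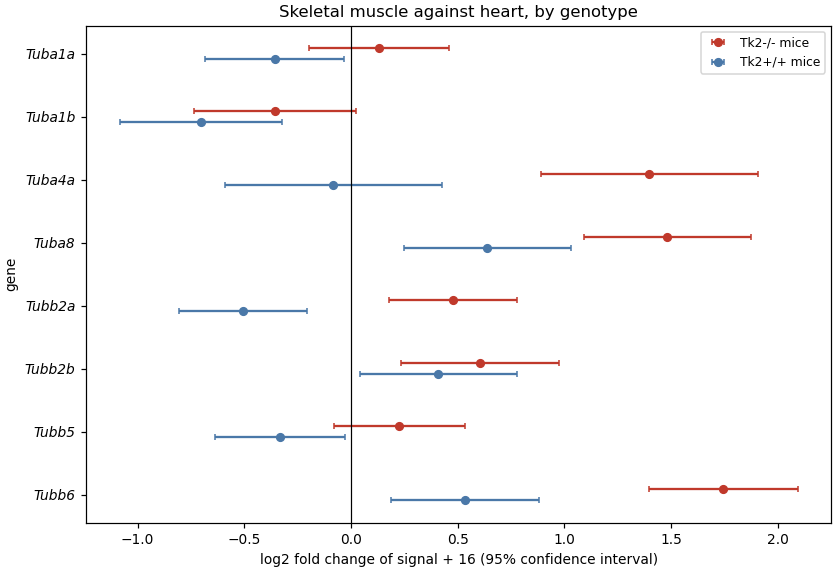
Log2 fold change of signal + 16 in skeletal muscle against heart (horizontal axis, points with 95% confidence intervals) of 8 tubulin genes in Tk2-/- mice (red) and Tk2+/+ mice (blue), from deposited values. In Tk2-/- mice 5 of the 8 intervals lie wholly above 0, and Tubb2a is above 0 in Tk2-/- mice and below 0 in Tk2+/+ mice.

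Put in order by mean signal, the 4 groups did not run alike for all genes. Tuba1a, Tuba1b, Tubb2a and Tubb5 were highest in Tk2+/+ heart, then Tk2+/+ skeletal muscle, with both Tk2-/- groups below. Of these neighbours, the 2 Tk2-/- groups did not differ past the threshold for Tuba1a, Tuba1b and Tubb5, and the 2 Tk2+/+ groups did not for Tuba1a and Tubb5. Tuba8 was highest in Tk2+/+ skeletal muscle and lowest in Tk2-/- heart, with 1876 ± 159 in Tk2-/- skeletal muscle and 1768 ± 340 in Tk2+/+ heart between them, a pair that was not tested. Tuba4a also had Tk2+/+ heart highest and Tk2+/+ skeletal muscle next, but 3 groups lay between 2625 and 3259 in the mean. Its Tk2-/- heart stood alone below. Tubb6 and Tubb2b had the order Tk2+/+ skeletal muscle, Tk2+/+ heart, Tk2-/- skeletal muscle and Tk2-/- heart, with the 2 Tk2+/+ groups of Tubb2b not apart past the threshold. The middle pair was not tested for either gene. For Tubb6 its arrays overlapped, at 269 to 330 in Tk2+/+ heart and 215 to 313 in Tk2-/- skeletal muscle.

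The correlation of the genes' log2 signals over the 12 arrays is given as a description. Tuba1a, Tuba1b, Tubb2a and Tubb5 had Pearson's r of 0.885 to 0.977 with each other. Tuba4a, Tuba8 and Tubb6 had r of 0.898 to 0.957 with each other, and between the sets r was 0.38 to 0.781, lowest for Tuba1b with Tuba8. Tubb2b lay between, with 0.912 to Tubb6 and 0.851 to Tuba1a. The 12 arrays are 4 groups of 3 and share the dim Tk2-/- heart arrays, so these values follow the group means more than the single animals. The promoters shown above hold GGGCGG in Tuba1a, Tubb5 and Tubb2a and not in Tuba8, and Tuba4a, of the second set, holds it 2 times.

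**Figure D5:**
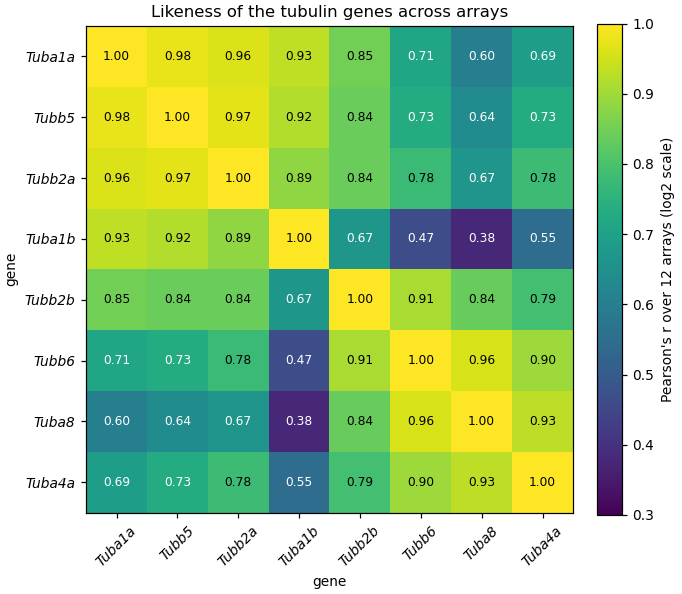
Pearson's r of log2(signal + 16) over 12 arrays for each pair of the 8 tubulin genes, as colour and number. The block of Tuba1a, Tubb5, Tubb2a and Tuba1b at the top left and that of Tubb6, Tuba8 and Tuba4a at the bottom right have r of at least 0.885 inside, and pairs between the blocks have at most 0.781.

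Among genes outside the set, the one most like each member over the 12 arrays was Crtap for Tuba1a (r = 0.995), Nucks1 for Tubb6 (0.993), Manf for Tubb5 (0.991) and Atp8b2 for Tubb2a (0.987). For Tuba4a it was Mrps27 (0.985), for Tubb2b Cit (0.984), for Tuba8 Zfp280b (0.983) and for Tuba1b Paqr7 (0.982). Crtap takes part in the prolyl hydroxylation of collagen, Manf in the response to misfolded protein in the endoplasmic reticulum, and Cit is the citron kinase of the dividing cell. Each was the highest among all other genes measured, and a maximum over so many genes is high by selection.

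Of 10 other tubulin genes measured, 3 fell and 0 rose in skeletal muscle, and 6 fell and 0 rose in the heart (5 and 0 after quantile normalization in either tissue). Tubb4a, a beta isotype of the brain, had the largest fall of this list in both tissues in the deposited values. It averaged 16.6 ± 1.32 in Tk2-/- skeletal muscle and 56.9 ± 13.8 in Tk2+/+ skeletal muscle, and 17.3 ± 3.51 in Tk2-/- heart and 70.6 ± 13.3 in Tk2+/+ heart (SD, n = 3 each). The log2 fold changes of Tubb4a were -1.15 (adjusted p = 3.22e-05) and -1.37 (adjusted p = 2.50e-06), understated because the signal is close to the offset. The gamma tubulins, which nucleate microtubules, also moved: Tubg2 by -0.47 in skeletal muscle (adjusted p = 0.0175) and Tubg1 by -1.26 in the heart (adjusted p = 4.30e-06), or -0.59 after quantile normalization (adjusted p = 0.00114).

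Of 18 measured genes of the chaperonin, prefoldin and the tubulin cofactors, 2 rose and 2 fell in skeletal muscle, with a median log2 fold change of -0.02. The chaperonin subunits Cct4 (0.37, adjusted p = 0.0169) and Cct2 (0.32, adjusted p = 0.0442) were higher, while the prefoldin subunit Pfdn1 (-0.54, adjusted p = 0.0164) and the cofactor Tbcc (-0.38, adjusted p = 0.0255) were lower. After quantile normalization 1 was higher and 5 were lower, and Cct2 no longer passed (adjusted p = 0.0881). In the heart all 18 were lower in the deposited values, and after quantile normalization 6 were lower and 0 higher with a median of -0.13, with Cct3 at -0.47 (adjusted p = 5.33e-04).

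Among 23 measured genes of tubulin-modifying enzymes, 2 rose and 8 fell in skeletal muscle. Ttll7, a polyglutamylase that prefers beta tubulin, rose in both tissues. It averaged 582 ± 34.8 in Tk2-/- skeletal muscle and 255 ± 62.9 in Tk2+/+ skeletal muscle (log2 fold change 1.16, adjusted p = 2.01e-05). In the heart Ttll7 averaged 61.7 ± 4.06 in Tk2-/- mice and 36.4 ± 2.87 in Tk2+/+ mice (SD, n = 3 each, 0.57, adjusted p = 0.00194, and 0.93 with adjusted p = 1.54e-04 after quantile normalization). Ttll1, the catalytic subunit of another polyglutamylase, fell in both tissues, with a difference of -0.73 in skeletal muscle (adjusted p = 0.00164) and -1.37 in the heart (adjusted p = 3.05e-06), or -0.75 in the heart after quantile normalization (adjusted p = 6.86e-04). In skeletal muscle the tubulin deacetylase Sirt2 rose (0.39, adjusted p = 0.0174) and the deglutamylase Agbl1 fell (-1.07, adjusted p = 4.02e-04). In the heart 1 of the 23 genes rose and 10 fell, Ttll12 among them (-1.26, adjusted p = 8.04e-06, or -0.96 with adjusted p = 3.91e-04 after quantile normalization), and after quantile normalization 4 rose and 6 fell.

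Of 23 genes of microtubule-associated proteins and stathmins, 1 rose and 6 fell in skeletal muscle. Clip1, which tracks growing microtubule ends, averaged 1126 ± 179 in Tk2-/- skeletal muscle and 628 ± 126 in Tk2+/+ skeletal muscle (SD, n = 3 each, 0.83, adjusted p = 4.45e-04). Stmn1, which binds free tubulin dimers and is abundant in dividing cells, fell (-0.84, adjusted p = 0.0138), and so did the doublecortin-like kinase Dclk1 (-0.56, adjusted p = 0.00274). In the heart 1 rose and 19 fell, and after quantile normalization 2 rose and 9 fell. Map7, which recruits kinesin to microtubules, rose there to 163 ± 17.5 in Tk2-/- mice, against 103 ± 13.7 in Tk2+/+ mice (SD, n = 3 each, 0.59, adjusted p = 2.21e-04, and 1.19 with adjusted p = 2.57e-05 after quantile normalization). Map1b (-1.32, adjusted p = 1.53e-06) and Map7d1 (-1.30, adjusted p = 8.46e-06) had the largest falls in the deposited values of the heart, and after quantile normalization they had -0.66 (adjusted p = 0.00145) and -0.62 (adjusted p = 9.90e-04).

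Of 13 measured genes of microtubule nucleation and severing, 1 rose and 2 fell in skeletal muscle. Tubgcp2, a part of the gamma tubulin complex, rose (0.44, adjusted p = 0.00660), and the severing enzyme Fign (-0.64, adjusted p = 0.00554) and its relative Fignl1 (-0.90, adjusted p = 0.0141) fell. In the heart 0 rose and 12 fell, with Fignl1 (-1.09, adjusted p = 0.00121) and Tubgcp4 (-0.89, adjusted p = 4.11e-06) lowest in the deposited values. After quantile normalization 2 rose and 4 fell, with Fignl1 at -0.98 (adjusted p = 0.00554) and Tubgcp4 at -0.24 (adjusted p = 0.0128).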

How the data were processed

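RNA of 12 tissue samples had been labelled and hybridised to Affymetrix Mouse Gene 1.1 ST arrays. The authors deposited 1 linear intensity for each of 35556 probe sets and array. Per the submitters' processing notes, probes were combined with PLIER in Affymetrix Expression Console (no versions given), and the methods name neither the normalization nor a correction for multiple tests. Probe sets with 1 symbol (21218) gave 18820 genes, each read from the probe set with the highest mean over 12 arrays. An offset of 16 was added before log2, which understates changes of dim genes. R 4.3.3 and limma 3.58.1 were used for a single linear model of the 4 groups, with moderated variances (eBayes, residual degrees of freedom 8) and Benjamini-Hochberg adjustment over all genes. The members, the gene lists and the rule for named genes (all members, Tk2, up to 2 rises and 2 falls per list and tissue, and the gene most like each member) were chosen with earlier results of these data known. The fit was tested on simulated data. Alternatives were other scalings, an offset of 1, other uses of probe sets, other fits, the methods' t-test, and leaving out each array in turn. Python 3.11.15 (matplotlib 3.10.9, NumPy 2.4.6) made the figures. With 3 arrays a group, the number of arrays limits the precision. Sex is not in the labels, and Xist was high on some arrays and near 0 on others of the same group in 3 of the 4 groups. In Tk2-/- heart Xist was 662 or more on every array, while the lowest Tk2-/- skeletal muscle array had 1.6. By Xist these 2 groups are not from the same 3 mice. Tk2+/+ heart ranged from 0.02 to 1550, so by Xist sex was not balanced between the genotypes in the heart. In skeletal muscle Xist ranged from 1.6 to 1047 in Tk2-/- mice (mean 659) and from 1.45 to 1193 in Tk2+/+ mice (mean 399). By these values sex was not balanced in skeletal muscle either. No columns of per-sample values were left unused. Promoter sequences are from RefSeq (GRCm38.p6).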

Additional observations from a re-analysis of the deposited data

Results flagged for a closer look

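The effect of the genotype on 5 tubulin genes differed between the tissues by the test of the difference itself, taken as the log2 fold change in skeletal muscle minus that in heart in the deposited values. The difference was 1.481 for Tuba4a, 1.211 for Tubb6, 0.986 for Tubb2a, 0.842 for Tuba8 and 0.559 for Tubb5, with adjusted p from limma of 0.00234, 7.77e-04, 0.00107, 0.0156 and 0.0364. Over all genes, 41.3% passed above 0 in the same comparison. The mean signal over all probe sets was 146.7 to 168.4 on Tk2-/- heart arrays and 227.4 to 242.6 on Tk2+/+ heart arrays, and after quantile normalization within each tissue the difference passed for 0 of the 8 genes. Groups of 3 arrays were not searched for single arrays far from the others.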

How the results depend on the processing

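The falls in the heart kept their direction and their call for all 8 tubulin genes in all 28 alternatives, with log2 fold changes between -2.15 and -0.65 and 8 genes called throughout. In skeletal muscle 6 to 7 genes were called when 1 array was left out, and 0 with the methods' t-test after Benjamini-Hochberg adjustment, where 7 of the 8 genes had an unadjusted p under 0.05, as in limma. With that t-test 294 of all genes were lower and 366 higher, against 2050 and 2179 in limma. Tuba8 passed in 16 of 28 alternatives in skeletal muscle, and Tuba4a in 0.

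The difference between the tissues was called for 0 genes after quantile normalization within each tissue, over 12 arrays, or after cyclic loess, and for 1 gene after upper-quartile scaling, which was Tubb6. Without 1 array it was called for 4 to 6 genes. It turned below 0 for 4 genes in each of these 4 scalings, named in the order quantile within each tissue, quantile over 12 arrays, cyclic loess and upper quartile: Tuba1a (-0.308, -0.311, -0.278 and -0.194), Tuba1b (-0.38, -0.405, -0.386 and -0.345), Tubb2b (-0.186, -0.238, -0.234 and -0.347) and Tubb5 (-0.229, -0.244, -0.206 and -0.126). The cause was not tested.

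Between the tissues of Tk2+/+ mice 0 genes were called with the t-test, where limma called 4, and 2 to 6 without 1 array. Between those of Tk2-/- mice 5 to 6 were called without 1 array.

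With a replicate block the counts were 7 in skeletal muscle, 8 in the heart and 5 for the difference, as without it. The same held where arrays of 1 genotype and number in both tissues were taken as 1 animal. By Xist that pairing cannot hold for all Tk2-/- arrays. Xist was 1.6 on the lowest Tk2-/- skeletal muscle array and 662 or more on every Tk2-/- heart array. The pairing by animal therefore gives no support to the counts. The tissue comparisons had 6 genes each with the block, against 5 in Tk2-/- and 4 in Tk2+/+ mice without it. Between genotypes, deviations of same-numbered arrays correlated at -0.03 to 0.13 in skeletal muscle and -0.19 to -0.05 in the heart. Between tissues they correlated at -0.19 to 0.10 in Tk2+/+ mice and -0.09 to -0.07 in Tk2-/- mice. With 3 arrays a group, these values cannot show whether same-numbered samples share a litter, a batch or an animal. Heart calls over all genes were 375 higher and 9229 lower as deposited, 2597 and 7147 after median centring, and 6532 and 2707 after upper-quartile scaling. High Xist as a covariate was chosen after seeing the data and left 6 genes called in skeletal muscle, 8 in the heart and 5 for the difference.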
